A study of Mus musculus with 6 samples.

Results

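The genes described here are 51 genes of DNA damage signaling and DNA repair, taken by name from the expression table of mouse MLL-AF9 leukemia cells and sorted by role into recombination, the Fanconi anemia pathway, mismatch repair, excision repair, end joining and damage signaling. Of the 51, 48 had an entry of their own and 3 stood only in entries joined with another gene. Of these 48, 47 averaged 1 FPKM or more across all samples, and these 47 of the 11130 genes tested are counted below. FPKM is the number of sequenced fragments of a gene, divided by the transcript's length and the library's size.

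The leukemia arose from c-Kit+ bone marrow progenitors of C57BL/6J mice that were retrovirally transduced with MLL-AF9, a fusion oncogene of human acute myeloid leukemia, and passed serially from mouse to mouse before transfer into non-irradiated recipients. All 6 leukemic mice carried such p53-intact cells. Vehicle was given by mouth to 3 of them, and to the other 3 DS-5272 at 80 mg/kg, a compound that frees p53 from MDM2, and RNA-Seq was performed 24 h later on leukemia cells from the bone marrow. The comparison asks how this drug changed the RNA levels of the leukemia cells. The model is thus a serially transplanted leukemia, and no source says whether all 6 samples go back to 1 primary leukemia. Nothing in the labels says that mice were pooled.

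DNA breaks are sensed by the kinases ATM and ATR, which signal through CHK2 and CHK1 to hold the cell cycle and call in repair. Recombination and the Fanconi anemia pathway restore broken or crosslinked DNA mostly during and after replication and are tied to dividing cells, whereas end joining and nucleotide excision repair also serve cells that do not divide. Many recombination and replication genes are driven by E2F factors, whose activity falls when p53 induces p21.

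Members with promoter windows in RefSeq were searched for the core E2F site, and 4 windows with a match are shown. They belong to the 3 matched members with a log2 fold change of −1 or lower and the 1 matched member that was not lower. Windows of the matched members with smaller falls are not shown. Each runs from 250 bases before to 50 bases after the transcription start on the strand of the gene, in GRCm38.p6, and the capitals mark the match. Brca2 (chr5:150522371-150522670, plus strand), Bard1 (chr1:71102923-71103222, minus strand) and Msh6 (chr17:87974800-87975099, plus strand) belong to genes that fell, and Fancg (chr4:43010252-43010551, minus strand) to a gene that did not pass the test.
Brca2: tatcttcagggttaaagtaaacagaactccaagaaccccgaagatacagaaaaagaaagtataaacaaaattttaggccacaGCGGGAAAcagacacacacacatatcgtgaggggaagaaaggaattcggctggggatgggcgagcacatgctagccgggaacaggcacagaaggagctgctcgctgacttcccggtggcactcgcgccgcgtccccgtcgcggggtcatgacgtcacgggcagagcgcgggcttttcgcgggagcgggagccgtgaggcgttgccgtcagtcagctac
Bard1: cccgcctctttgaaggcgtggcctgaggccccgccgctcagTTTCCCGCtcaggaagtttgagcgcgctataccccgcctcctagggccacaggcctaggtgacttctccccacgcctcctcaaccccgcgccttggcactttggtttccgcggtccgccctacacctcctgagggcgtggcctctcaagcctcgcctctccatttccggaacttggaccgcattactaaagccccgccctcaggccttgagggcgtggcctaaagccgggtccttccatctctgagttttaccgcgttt
Msh6: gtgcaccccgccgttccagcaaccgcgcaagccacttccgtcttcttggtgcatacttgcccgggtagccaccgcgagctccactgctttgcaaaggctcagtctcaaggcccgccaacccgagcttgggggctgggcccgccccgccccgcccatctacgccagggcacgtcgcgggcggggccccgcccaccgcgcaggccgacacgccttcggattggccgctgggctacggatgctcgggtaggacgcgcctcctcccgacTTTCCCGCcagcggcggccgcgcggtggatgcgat
Fancg: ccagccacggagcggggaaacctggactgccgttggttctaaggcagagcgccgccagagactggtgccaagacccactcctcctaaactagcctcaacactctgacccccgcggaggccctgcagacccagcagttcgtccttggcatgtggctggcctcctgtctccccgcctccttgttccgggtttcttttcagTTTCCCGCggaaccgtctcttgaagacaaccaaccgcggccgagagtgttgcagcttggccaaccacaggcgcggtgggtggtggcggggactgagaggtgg
The letters searched on both strands were TTTGGCGC, TTTCCCGC, TTTCGCGC and TTTGCCGC. A match was present for 7 of the 37 tested members with a window (18.9%), against 4.98% of the 7456 tested genes with a window and 2.6% of all 27025 genes with one. Counted from 0 at the transcription start, the match began at position −168 in Brca2, −209 in Bard1, −52 in Fancg and 15 in Msh6, and the other genes with a match were Rad51c, Chek2 and Xrcc6. Matches were present in 3 of 14 members at a log2 fold change of −1 or lower, 3 of 17 among the smaller falls and 1 of 6 among those that were not lower. Of the 18 tested members at −1 or lower, only these 14 had a window. The counts are too small to tell whether matches went with the size of the fall. The letters TTTGAA, found in cell cycle homology regions, occurred in 1 of the 37 windows (2.7%), that of Bard1, against 14.3% of the tested genes with a window. CCAAT occurred in 21 (56.8%), against 43.8%. These are counts of letters, and binding was not measured.

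In the leukemia cells of the DS-5272 mice, 39 of the 47 repair genes tested were lower, 1 was higher and 7 did not pass the test (limma on log2(FPKM + 1), Benjamini-Hochberg adjusted p under 0.05 over all genes tested). Over all 11130 genes, 22.0% were lower and 24.2% were higher. The 3 DS-5272 values lay below all 3 vehicle values for 40 of the 47, against 29.7% of all genes. The median log2 fold change was −0.79 for the repair genes and 0.04 for all genes. Among these 47 genes, recombination and mismatch repair had the lowest medians, at −1.42 and −1.28. In 25 further recombination genes described below the median was −0.46. None of the 3 nucleotide excision repair genes passed (1 did at a common total), and Polb, the gap-filling polymerase of base excision repair, rose. In RNA from cells in bulk, fewer cells of a type and less RNA per cell cannot be told apart.

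**Figure D1:**
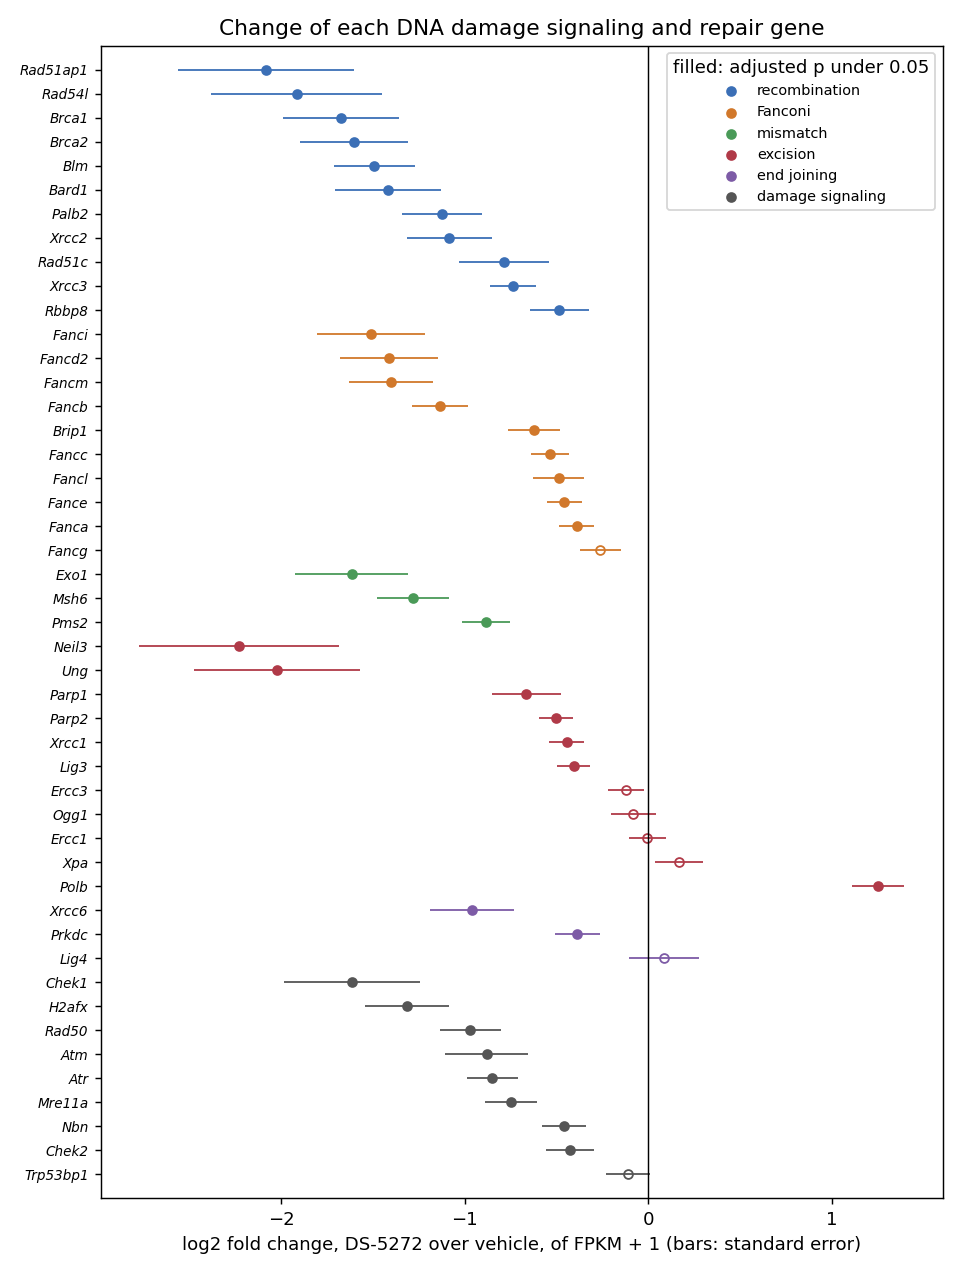
Log2 fold change of FPKM + 1 (x axis, DS-5272 over vehicle, 3 mice each) of the 47 tested genes (y axis), colored by pathway, with the standard error as bars and filled points for an adjusted p under 0.05. Of the 47, 39 filled points lie left of 0 and 1, Polb, lies right of it.

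Of the 9 damage signaling genes, 8 were lower, with a median log2 fold change of −0.85. Chek1, the kinase that ATR activates at stalled replication forks, had 9.55, 7.93 and 8.80 FPKM with vehicle (replicates 1, 2 and 3, in this order throughout) and 2.22, 4.50 and 0.820 with DS-5272. The groups did not overlap, and the log2 fold change was −1.61 (SE 0.37, adjusted p = 0.0137). H2afx encodes the histone variant H2AX, which is phosphorylated around DNA breaks. Its FPKM was 60.9, 67.2 and 65.9 with vehicle and 23.4, 36.8 and 18.9 with DS-5272, a log2 fold change of −1.32 (SE 0.23, adjusted p = 0.0060). In both genes the DS-5272 mice differed more among themselves than the vehicle mice did, with replicate 2 the highest and replicate 3 the lowest.

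The MRE11-RAD50-NBS1 complex, which recognizes broken ends and activates ATM, fell in all its subunits, and differences between the subunits were not tested. Rad50 was at 25.6, 23.9 and 24.6 FPKM with vehicle and at 10.3, 15.9 and 10.8 with DS-5272 (log2 fold change −0.97, SE 0.17, adjusted p = 0.0058). Mre11a, the nuclease, was at 19.6, 18.3 and 18.5 against 9.51, 13.5 and 9.79 (log2 fold change −0.75, adjusted p = 0.0078). Nbn, the subunit that binds ATM, was at 15.3, 15.1 and 17.2 against 10.3, 12.99 and 10.7 (log2 fold change −0.46, adjusted p = 0.0204). The call of Nbn was lost without vehicle replicate 1, 2 or 3, at adjusted p = 0.051, 0.058 and 0.086. An exon of Mre11a overlaps Ankrd49 on the other strand, and Ankrd49 was also lower.

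The kinases at the head of the response fell less than Chek1. Atr was at 6.50, 5.10 and 5.38 FPKM with vehicle and at 2.85, 2.96 and 2.28 with DS-5272, a log2 fold change of −0.85 (SE 0.14, adjusted p = 0.0051). Atm was at 5.71, 3.82 and 3.88 against 2.54, 2.24 and 1.21, a log2 fold change of −0.88 (SE 0.23, adjusted p = 0.0192), and without vehicle replicate 1, the highest mouse, its adjusted p was 0.060. Whether Chek1 fell further than Atr or Atm was not tested. Chek2, the kinase downstream of ATM, was at 14.8, 10.9 and 11.7 FPKM against 8.91, 8.67 and 9.36 (log2 fold change −0.43, adjusted p = 0.0349). Its call was lost without any 1 of the 6 mice, with the adjusted p reaching 0.087 without vehicle replicate 1, and also with no filter on low values. Trp53bp1, whose product 53BP1 shields broken ends and steers them to end joining, showed the smallest change of these genes. It was at 9.94, 7.95 and 8.21 FPKM with vehicle and at 8.68, 7.53 and 7.71 with DS-5272, overlapping groups with a log2 fold change of −0.11 (SE 0.12, adjusted p = 0.478).

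Atrip, the partner that brings ATR to single-stranded DNA, stood only in an entry joined with Trex1, a DNA exonuclease gene with which it shares exon sequence. The joined entry was at 32.2, 30.7 and 30.9 FPKM with vehicle and at 87.4, 76.7 and 95.5 with DS-5272 (log2 fold change 1.44, SE 0.11, adjusted p = 0.0007). The direction was thus opposite to that of Atr, but the parts of Atrip and Trex1 in this value cannot be told apart, and it was not counted with the 47.

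All 11 recombination genes were lower, with a median log2 fold change of −1.42. Rad51ap1, which helps the strand exchange step, was at 22.5, 19.1 and 20.4 FPKM with vehicle and at 4.49, 9.17 and 1.37 with DS-5272, so the DS-5272 mean was 24.2% of the vehicle mean (log2 fold change −2.08, SE 0.48, adjusted p = 0.0136). Rad54l, a motor protein of the same step, was at 16.3, 9.67 and 10.5 against 2.99, 5.002 and 0.647 (log2 fold change −1.92, SE 0.47, adjusted p = 0.0162). Without vehicle replicate 1, which held the highest value, the adjusted p of Rad54l was 0.054. Blm, the helicase that dissolves recombination intermediates, was at 17.2, 15.9 and 14.4 against 4.85, 7.21 and 3.42 (log2 fold change −1.49, SE 0.22, adjusted p = 0.0041). In each of these 3 genes the highest DS-5272 mouse, replicate 2, remained below the lowest vehicle mouse.

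The chain of proteins that loads the recombinase onto resected ends fell together. Brca1, the scaffold, was at 8.80, 7.52 and 7.18 FPKM with vehicle and at 1.93, 3.21 and 0.703 with DS-5272, a log2 fold change of −1.68 (SE 0.31, adjusted p = 0.0074). Bard1, its obligate partner, was at 8.47, 7.58 and 6.14 against 2.04, 3.72 and 1.11, a log2 fold change of −1.42 (SE 0.29, adjusted p = 0.0096). Brca1 and Bard1 therefore stood at 24.8% and 31.0% of their vehicle means. Palb2, which links BRCA1 to BRCA2, was at 5.63, 3.97 and 3.67 FPKM against 1.79, 1.82 and 0.886, a log2 fold change of −1.12 (SE 0.22, adjusted p = 0.0082). Brca2, the loader, was at 7.14, 6.03 and 6.19 against 1.22, 2.89 and 0.696, a log2 fold change of −1.60 (SE 0.29, adjusted p = 0.0070). No DS-5272 mouse reached the vehicle range for any of these 4 genes.

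The paralogs of the recombinase were lower as well. Xrcc2, Rad51c and Xrcc3 had log2 fold changes of −1.09, −0.79 and −0.74 (adjusted p = 0.0108, 0.0382 and 0.0059). Rbbp8, which encodes the resection factor CtIP, showed the smallest change of the 11, at 17.4, 19.0 and 19.2 FPKM with vehicle and 10.2, 15.7 and 13.6 with DS-5272 (log2 fold change −0.48, SE 0.16, adjusted p = 0.0438). The calls of Rad51c and Rbbp8 were lost without any 1 mouse other than DS-5272 replicate 2, with adjusted p up to 0.111 for Rad51c (without vehicle replicate 1) and 0.124 for Rbbp8 (without vehicle replicate 2 or 3), and also with no filter on low values. Rad54b, a relative of Rad54l, was present only in an entry joined with Fsbp, at 6.57, 5.43 and 5.57 FPKM against 1.21, 3.27 and 0.583 (log2 fold change −1.48, adjusted p = 0.0143), and it was not counted.

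**Figure D2:**
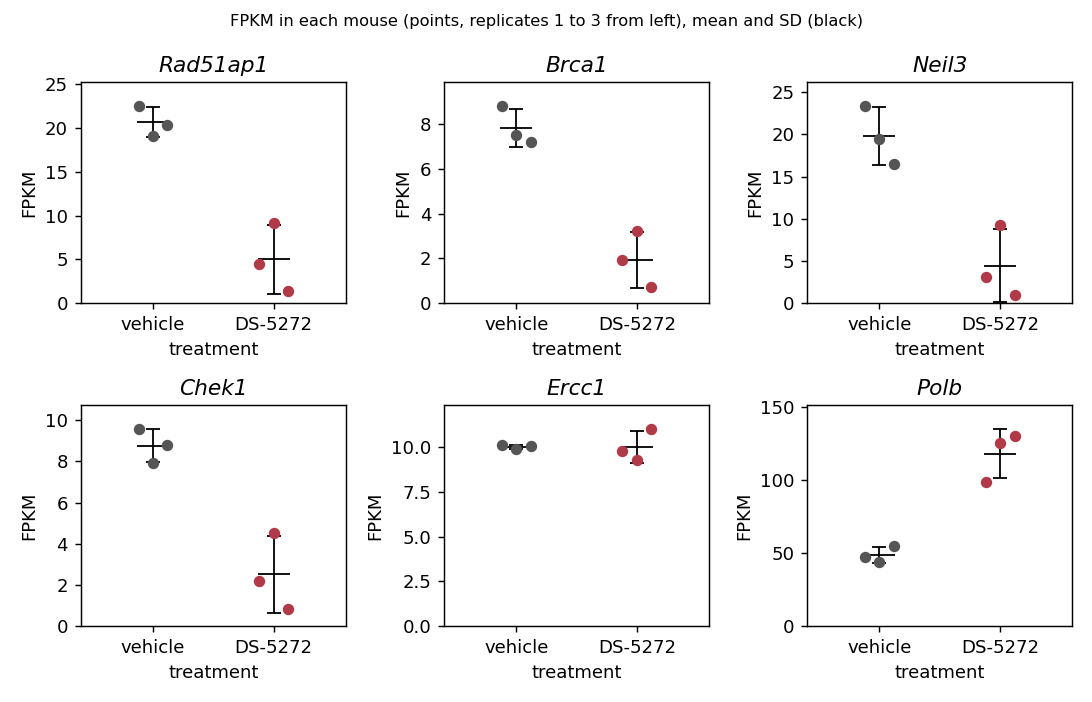
FPKM (y axis, from 0) of 6 genes in each vehicle and DS-5272 mouse (x axis), with points for mice and black lines for the mean and SD of 3. Rad51ap1, Brca1, Neil3 and Chek1 are lower in every DS-5272 mouse, Ercc1 overlaps between the groups, and Polb is higher in every DS-5272 mouse.

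The Fanconi anemia pathway unhooks DNA crosslinks. A core complex of several FANC proteins adds ubiquitin to FANCD2 and FANCI, which then direct incision and recombination. Of its 10 genes tested, 9 were lower, with a median log2 fold change of −0.58, and the 2 targets of the core complex fell far. Fanci was at 6.28, 4.50 and 4.36 FPKM with vehicle and at 0.917, 2.22 and 0.504 with DS-5272 (log2 fold change −1.51, SE 0.29, adjusted p = 0.0081). Fancd2 was at 7.02, 5.23 and 5.74 against 1.49, 2.84 and 0.870 (log2 fold change −1.41, SE 0.27, adjusted p = 0.0076).

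Core complex genes had log2 fold changes from −1.40 to −0.26, and differences between genes were not tested. Fancm, the translocase that anchors the complex on DNA, was at 4.62, 3.95 and 3.99 FPKM against 1.15, 1.51 and 0.390 (log2 fold change −1.40, adjusted p = 0.0052). Fancb, which is X-linked, was at 4.46, 3.96 and 3.32 against 1.52, 1.23 and 0.970 (log2 fold change −1.13, adjusted p = 0.0033). Both had log2 fold changes below −1, unlike the other core genes tested. Fancc, Fancl (the ubiquitin ligase), Fance and Fanca had log2 fold changes of −0.53, −0.49, −0.46 and −0.39 (adjusted p = 0.0082, 0.0266, 0.0103 and 0.0172). Fancg was at 8.92, 7.71 and 7.54 FPKM with vehicle and 6.47, 7.04 and 6.15 with DS-5272, groups that did not overlap but whose log2 fold change of −0.26 (SE 0.11) had an adjusted p of 0.0922. Brip1, a helicase that binds BRCA1, had a log2 fold change of −0.62 (adjusted p = 0.0131). Leaving out a vehicle mouse ended the call of Fanca (replicate 1 or 2, adjusted p = 0.061 and 0.076), Fance (replicate 2, 0.054) and Fancl (replicate 1, 2 or 3, with 0.107 without replicate 3). The call of Fancl was also lost without DS-5272 replicate 1 and with no filter on low values.

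The values of Fanca and Brip1 are sums of 2 lines of the table under the same symbol, and these lines did not behave alike. The larger Fanca line was at 27.8, 27.5 and 23.8 FPKM with vehicle and at 14.6, 16.1 and 10.5 with DS-5272 (log2 fold change −0.91, adjusted p = 0.0067). The smaller line was at 2.46, 2.65 and 3.49 against 8.91, 6.00 and 10.1, a rise (log2 fold change 1.26, adjusted p = 0.0051). The smaller line thus takes back part of the fall when both are summed. Exons of Fanca overlap those of Zfp276 on the other strand, and Zfp276 was at 4.66, 4.96 and 4.996 FPKM against 9.58, 9.28 and 14.0 (log2 fold change 1.004, adjusted p = 0.0051). Its part in the Fanca lines was not tested. For Brip1 both lines fell, the larger by 0.50 and the smaller by 1.38 on the log2 scale.

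Mismatch repair corrects copying errors behind the replication fork, and its 3 genes were lower, with a median log2 fold change of −1.28. Exo1, the exonuclease that removes the faulty strand, was at 6.87, 4.86 and 4.97 FPKM with vehicle and at 1.34, 2.05 and 0.338 with DS-5272 (log2 fold change −1.62, SE 0.31, adjusted p = 0.0078). Msh6, a partner in the sensor of single mismatches, was at 25.7, 20.6 and 21.7 against 9.39, 11.0 and 6.33 (log2 fold change −1.28, SE 0.20, adjusted p = 0.0044). Pms2, part of the nicking endonuclease, was at 9.39, 9.52 and 9.58 against 4.27, 5.73 and 4.17 (log2 fold change −0.89, SE 0.13, adjusted p = 0.0040). The groups did not overlap in any of the 3.

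Excision repair was split. Of the 8 genes of base excision and single-strand break repair, which replace damaged single bases, 6 were lower and 1 was higher. The largest falls were those of glycosylases, the enzymes that cut the faulty base out. Neil3, which acts on oxidized bases and crosslinks, was at 23.4, 19.5 and 16.5 FPKM with vehicle and at 3.16, 9.24 and 0.987 with DS-5272 (log2 fold change −2.23, SE 0.54, adjusted p = 0.0166). Ung, which removes uracil, was at 15.7, 12.9 and 13.2 against 4.50, 4.39 and 0.659 (log2 fold change −2.02, SE 0.45, adjusted p = 0.0126). Ogg1, the glycosylase for oxidized guanine, differed from both. It was at 6.11, 6.73 and 5.72 FPKM against 5.06, 5.93 and 6.43, with overlapping groups and a log2 fold change of −0.08 (SE 0.12, adjusted p = 0.606). The call of Neil3 was lost without vehicle replicate 1 or 2, each at adjusted p = 0.053.

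Nick sensing and sealing genes were also lower. Xrcc1, the scaffold of single-strand break repair, was at 17.7, 17.1 and 17.3 FPKM with vehicle and at 13.5, 12.7 and 11.4 with DS-5272 (log2 fold change −0.44, SE 0.10, adjusted p = 0.0115). Its ligase partner Lig3 was at 12.95, 11.7 and 12.3 against 9.25, 8.96 and 8.87 (log2 fold change −0.41, SE 0.09, adjusted p = 0.0127). The partners were at 72.1% and 73.4% of their vehicle means. Parp1, the main sensor of nicked DNA, was at 45.4, 33.1 and 33.4 FPKM against 27.0, 24.5 and 18.1 (log2 fold change −0.66, adjusted p = 0.0267). Parp2, its relative, was at 41.0, 37.6 and 36.4 against 27.6, 26.7 and 26.0 (log2 fold change −0.50, adjusted p = 0.0067). Parp1 did not pass without vehicle replicate 1, 2 or 3 or without DS-5272 replicate 3, with adjusted p up to 0.076 (without vehicle replicate 1). Without vehicle replicate 3, Xrcc1 and Lig3 were at adjusted p = 0.051 and 0.058.

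Polb, the polymerase that fills the gap left in base excision repair, was the only one of the 47 that rose. It was at 47.4, 44.3 and 54.9 FPKM with vehicle and at 98.8, 126 and 130 with DS-5272, so each DS-5272 mouse was above each vehicle mouse. The DS-5272 mean was 2.42 times the vehicle mean (log2 fold change 1.25, SE 0.14, adjusted p = 0.0021), and with 1 mouse left out the log2 fold change ranged from 1.18 to 1.38. In the GENCODE annotation an exon of Polb overlaps Gm26909 on the other strand.

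None of the 3 nucleotide excision genes, which remove bulky lesions such as those made by ultraviolet light, passed the limma test, none had an unadjusted p under 0.05, and their median log2 fold change was −0.004. Ercc1, a subunit of an incision nuclease, was at 10.1, 9.90 and 10.0 FPKM with vehicle and at 9.75, 9.28 and 11.0 with DS-5272 (log2 fold change −0.004, SE 0.10, adjusted p = 0.978). Xpa, which verifies the lesion, and Ercc3, a helicase of TFIIH, had log2 fold changes of 0.17 and −0.12 (adjusted p = 0.319 and 0.349). Scaled to a common total, Ercc3 passed as lower, with a log2 fold change of −0.38 (adjusted p = 0.0233). Ercc2, the other TFIIH helicase, was listed jointly with Mir343, at 9.63, 8.57 and 8.65 FPKM against 7.82, 6.54 and 6.63. Its log2 fold change was −0.32 with an adjusted p of 0.0536, which became 0.0404 with the replicate number as a block and 0.0319 without DS-5272 replicate 1. At a common upper quartile or total the joined entry had log2 fold changes of −0.38 and −0.58 (adjusted p = 0.0485 and 0.0460). Exons of Ercc1, Ercc2 and Xpa overlap other genes in the annotation.

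End joining ligates broken ends without a template. Xrcc6, which encodes the Ku70 subunit of the ring that grips the ends, was at 30.0, 29.4 and 29.1 FPKM with vehicle and at 16.8, 19.2 and 9.71 with DS-5272 (log2 fold change −0.96, SE 0.23, adjusted p = 0.0157). Xrcc5, the Ku80 subunit, was at 0.841, 1.10 and 1.27 against 0.369, 0.412 and 0.318, below the level needed for testing. Its level was far below that of its partner in every mouse. Prkdc, the kinase that Ku recruits, was at 4.55, 3.59 and 3.69 FPKM against 2.93, 2.66 and 2.73 (log2 fold change −0.39, adjusted p = 0.0408). Lig4, the ligase, was at 1.55, 0.969 and 0.960 against 1.77, 1.01 and 1.10, with overlapping groups (log2 fold change 0.09, SE 0.19, adjusted p = 0.729). Without vehicle replicate 2 the adjusted p of Xrcc6 was 0.053, and Prkdc was not called without any 1 of the 6 mice, with adjusted p up to 0.124 without vehicle replicate 1, nor with no filter on low values.

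**Figure D3:**
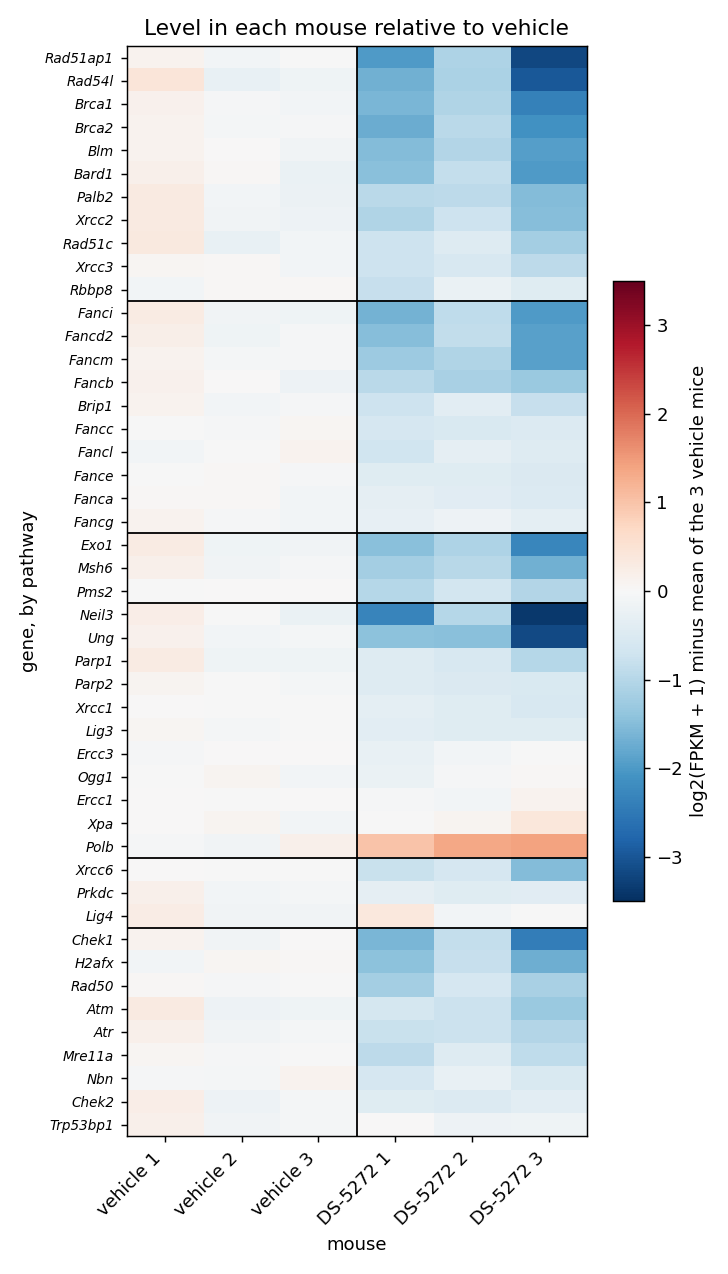
Log2(FPKM + 1) of each tested gene (rows, by pathway) in each mouse (columns) minus the mean of the 3 vehicle mice, from blue (lower) to red (higher). The blue is deepest in DS-5272 replicate 3 and palest in replicate 2 for most recombination genes, and Polb is red in all 3 DS-5272 mice.

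The 3 DS-5272 mice differed in how far the repair genes fell. The median level of the 39 lower genes was 43.6%, 56.9% and 29.2% of the vehicle mean in replicates 1, 2 and 3. Among these 39, replicate 2 was the highest DS-5272 mouse for 28 and replicate 3 the lowest for 31. For the recombination genes the medians were 30.7%, 45.6% and 20.0%, for the Fanconi genes 57.0%, 67.6% and 60.9%, and for the nucleotide excision genes 97.3%, 92.7% and 110%. Genes of DNA replication and mitosis had the same order of mice. The 26 replication genes, of which 25 were lower, stood at medians of 26.7%, 46.2% and 14.4%, and the 23 mitosis genes, all lower, at 13.7%, 46.9% and 6.37%.

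**Figure D4:**
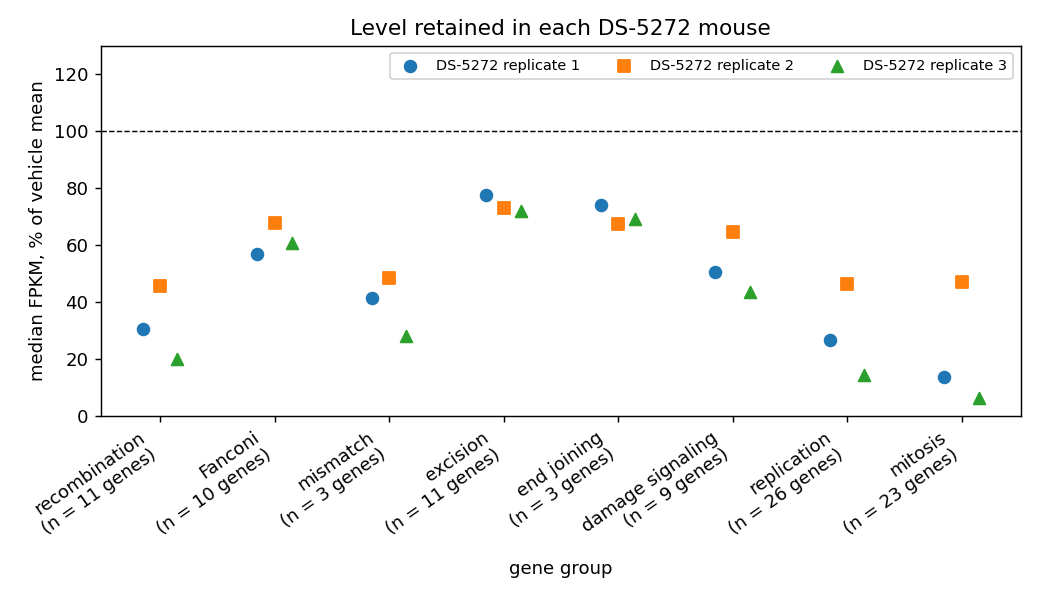
Median FPKM of the genes of each group as a percentage of their vehicle mean (y axis) in each DS-5272 mouse (symbols), with the dashed line at the vehicle level. Recombination genes lie at 30.7%, 45.6% and 20.0% in replicates 1, 2 and 3, below the excision genes in each mouse.

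Other features of the samples moved with treatment. Maturing neutrophil markers summed to 154 to 1653 FPKM with vehicle and 3171 to 15226 with DS-5272, and 6 of 8 were higher, against 24.2% of all genes. Macrophage markers summed to 60.7 to 117 against 127 to 581, with 3 of 8 higher and DS-5272 replicate 1 the highest. Erythroid markers summed to 1.87 to 3.77 against 8.20 to 90.3, with 1 of 4 higher. With 1 mouse left out, the neutrophil marker Ly6g passed in only 1 fit. S100a9, C1qa and the erythroid Hba-a1 passed in 4 of 6 such fits, and the other calls of these lists held in all 6. T cell markers summed to 0.279 to 0.396 with vehicle and 0.600 to 3.47 with DS-5272, where Cd4 reached 3.28 in replicate 1 and Cd3e at most 0.313. NK cell markers summed to 0.407 to 0.844 against 1.37 to 2.80, where Gzma reached 1.95 in replicate 1, so both sums were higher without overlap. No marker of either list averaged 1 FPKM, so none was tested. Cd3g and Klrb1c had lower means with DS-5272 (0.0936 against 0.127 and 0.161 against 0.181 FPKM). B cell markers summed to 4.29 to 5.02 against 3.39 to 4.29. Kit, a progenitor receptor, and Mpo, an early granule gene, were lower, and Itgam, Ptprc and Csf1r, present on myeloid cells, were higher, as was Spi1. The others of the leukemia and myeloid list, Meis1, Cebpa and the joined entry of Hoxa9 and Hoxa10, did not pass. Their log2 fold changes were 0.24, −0.38 and −0.23 (limma adjusted p = 0.310, 0.0766 and 0.205). Relative depth read from low values was 0.808 to 1 of that of vehicle replicate 1 with vehicle and 0.539 to 0.746 with DS-5272. Without DS-5272 replicate 1, 34 repair genes were lower, and without vehicle replicate 1, 28 were. The part of these features in the falls was not tested.

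A list of other repair genes, chosen by role, gave 112 tested genes, of which 64 were lower and 6 were higher, with a median log2 fold change of −0.49. All 11 further mismatch repair and fork genes were lower, as were 16 of 24 further damage signaling genes, 13 of 25 in recombination and 6 of 13 in the Fanconi group. In nucleotide excision repair 6 of 15 were lower (40.0%), with a median log2 fold change of −0.17. In base excision and direct repair 10 of 17 were lower (58.8%) and 4 higher (23.5%). In end joining 2 of 7 were lower and 2 higher (28.6% each), near the shares of all genes, so nothing particular to end joining is read from these counts. The largest falls were those of Lig1, the replicative ligase (log2 fold change −2.28), Clspn, the adaptor through which ATR reaches CHK1 (−2.25), Tipin, a fork protection factor (−2.10), Rpa2, which coats single-stranded DNA (−1.72), and Topbp1, the activator of ATR (−1.67).

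Mgmt and Dclre1c rose and kept their calls under every setting. Mgmt, which reverses alkylated guanine, was at 27.9, 26.7 and 28.7 FPKM with vehicle and at 64.7, 45.5 and 86.2 with DS-5272 (log2 fold change 1.16, SE 0.22, adjusted p = 0.0074). Dclre1c, the hairpin-opening nuclease Artemis of end joining, was at 9.46, 10.3 and 10.1 against 21.6, 17.6 and 24.95 (log2 fold change 1.02, SE 0.14, adjusted p = 0.0033). Neil1, a glycosylase for oxidized bases, and Xrcc4, the partner of DNA ligase IV, had log2 fold changes of 0.56 and 0.46 (adjusted p = 0.0486 and 0.0346), and leaving out any 1 vehicle mouse ended both calls, with adjusted p up to 0.141 for Neil1 and 0.109 for Xrcc4, each without vehicle replicate 2. Neil1 also did not pass without DS-5272 replicate 1 or 3, nor at a common upper quartile or by median ratio (adjusted p = 0.0757 and 0.0589). Scaled to a common total, Neil1 and Xrcc4 were at adjusted p = 0.240 and 0.166, and with no filter at 0.0959 and 0.0554.

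Several repair genes start within 1000 bases of a gene on the other strand, so that both share the stretch between them. A neighbor that could be tested was found for 12 members, of which 11 were lower. The neighbor was also lower in 4 of these, higher in 3 and did not pass in 4. Over all genes 22.0% were lower and 24.2% higher, and nothing particular to the neighbors is read from these counts. Mospd2, whose start lies 217 bases from that of Fancb, was at 8.99, 8.50 and 9.60 FPKM with vehicle and at 18.1, 13.1 and 21.2 with DS-5272 (log2 fold change 0.86, SE 0.17, adjusted p = 0.0096), while Fancb fell, and both calls held under the settings that tested them. Fancb was not tested at a mean of at least 5 FPKM. Zfyve21, 297 bases from Xrcc3, had a log2 fold change of 0.49 (adjusted p = 0.0107), with an adjusted p of 0.186 at a common total and 0.055 without vehicle replicate 3. Nbr1, an autophagy receptor gene 194 bases from Brca1, was at 19.4, 14.6 and 14.8 FPKM against 26.3, 19.3 and 31.1, so that 1 DS-5272 mouse lay within the vehicle range (log2 fold change 0.61, SE 0.20, adjusted p = 0.0411). Nbr1 did not pass when vehicle replicate 2 or 3 was left out (adjusted p = 0.129 and 0.120), without DS-5272 replicate 1 or 3 (0.0854 and 0.0978), with no filter (0.0719), and at a common upper quartile (0.0563) or total (0.225).

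In other pairs both genes fell. Mcm4, a subunit of the replicative helicase that starts 466 bases from Prkdc, was at 75.1, 69.1 and 77.7 FPKM against 27.9, 37.5 and 14.1 (log2 fold change −1.55, adjusted p = 0.0099). Aimp2 beside Pms2, Npat beside Atm and Ankrd49 beside Mre11a had log2 fold changes of −0.71, −0.61 and −0.86 (adjusted p = 0.0102, 0.0145 and 0.0213). Ankrd49 did not pass when vehicle replicate 1 or 2 or DS-5272 replicate 2 was left out (adjusted p = 0.0684, 0.0693 and 0.053). Dctn5 beside Palb2, D6Wsu163e beside Rad51ap1, Pomgnt1 beside Rad54l and Hscb beside Chek2 did not pass, with log2 fold changes of 0.26, −0.28, 0.03 and 0.07, and Abhd13 beside Lig4 was at 0.06. D6Wsu163e passed as lower at a common upper quartile or total (adjusted p = 0.0408 and 0.0323) and without DS-5272 replicate 2 (0.0477). Whether a repair gene and its neighbor changed by different amounts was not tested.

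**Figure D5:**
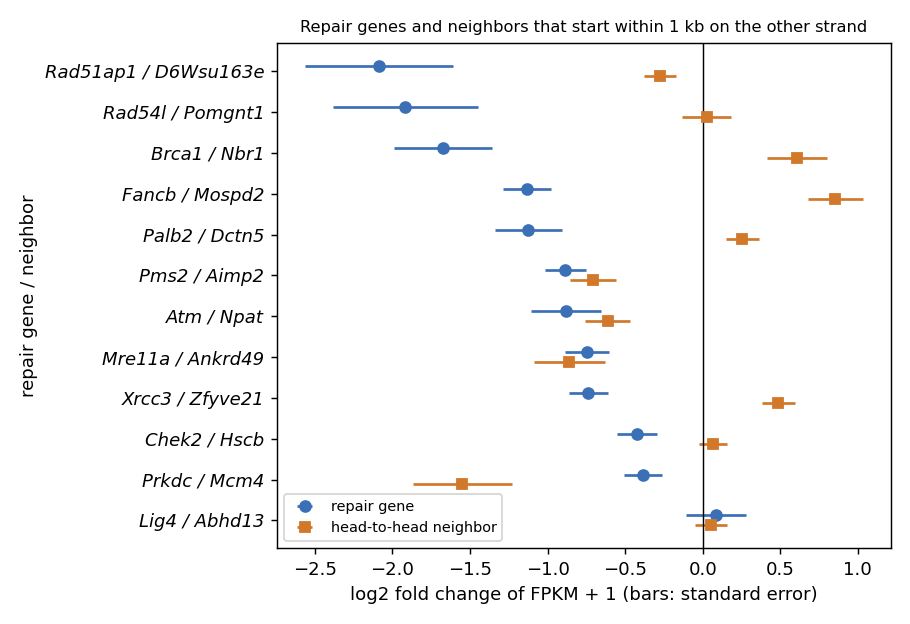
Log2 fold change of FPKM + 1 (x axis, DS-5272 over vehicle, bars for the standard error) of 12 repair genes (circles) and the neighbors that start within 1000 bases on the other strand (squares). Nbr1, Mospd2 and Zfyve21 lie right of 0 while Brca1, Fancb and Xrcc3 lie left of it.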

How the data were processed

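RNA-Seq was performed on leukemia cells of 6 mice, and the deposited values are FPKM per gene. The authors trimmed reads of strand-specific libraries with cutadapt 1.8.1, aligned them to GRCm38 transcripts with TopHat 2.1.1 and computed FPKM with Cufflinks 2.2.1, which corrects for the length of a transcript and the size of a library. No counts are given, so no count model was used, and depth was read only relatively, from genes under 0.15 FPKM. Samples were grouped by treatment as labelled. Lines sharing a symbol were summed and joined entries were kept apart. The deposited FPKM were analysed as log2(FPKM + 1), a scale that understates changes of low genes, with limma 3.58.1 in R 4.3.3 (lmFit, eBayes with trend, two-sided) for genes averaging 1 FPKM or more, and p-values were Benjamini-Hochberg adjusted over 11130 genes at 0.05. They measure the spread between mice. An exact permutation test of 3 against 3 cannot go below p = 0.1. The fit was tested on simulated data with noise drawn independently for each gene. Such data cannot show how the fit performs where deviations of a mouse are shared across genes.

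Values by mouse are given for the 4 members of a pathway with the largest change past the threshold, for members that rose, for the member with the smallest change and for subunits of a complex. Of the other repair genes, the 5 largest rises and falls are named, apart from items not reported here, and head-to-head neighbors by their distance. Members and lists were chosen with earlier results of these data known. The separate lines of Fanca and Brip1, and Zfp276, were chosen after their values were seen, as was the split of excision repair into its 2 branches. Deviations of same-numbered samples correlated across genes by 0.66, 0.21 and 0.43, each above the limit of 0.1 for reading the number as a pairing. Other combinations ranged from −0.58 to 0.34, the highest (vehicle replicate 2 with DS-5272 replicate 3) above the value of 0.21 for the same-numbered replicates 2, and the labels name no shared batch. Values come from the unblocked fit, with the blocked one given where it moved the call of a member or joined entry. With the block, 66 of the 112 other repair genes were lower. The neutrophil markers Camp and Ngp and the macrophage marker Cd5l then passed as higher (limma adjusted p = 0.0199, 0.0024 and 0.0393). Alternatives were a pseudocount of 0.1, no filter or a mean of 5 FPKM, rescaling to a common upper quartile, total (TPM) or median ratio, the block, eBayes without trend, leaving out each mouse, and the highest line of each symbol. Positions and overlaps came from GENCODE for GRCm38, where 25 of the 47 tested members have an exon overlapping another gene. No source says that fragments were counted by strand, so such values may include fragments of the other gene. Promoter windows came from RefSeq (GRCm38.p6). Tables and plots were made in Python 3.11.15 with pandas 2.3.3, numpy 2.4.6 and matplotlib 3.10.9.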

Additional observations from a re-analysis of the deposited data

How the results depend on the processing

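Of the 40 repair genes that passed, 13 were tested and kept their call under all 15 alternative settings, and 12 more kept it under the settings that tested them but were not tested at a mean of at least 5 FPKM. None of the 40 changed sign where tested. Leaving out 1 mouse left 28 to 37 lower genes, with the fewest without vehicle replicate 1 or 2. It left 8 to 11 in recombination, 6 to 9 in the Fanconi group, 3 to 6 in excision repair (3 without vehicle replicate 3), 0 to 1 in end joining (0 without vehicle replicate 2, 1 without any other mouse) and 5 to 7 in damage signaling (5 without vehicle replicate 1). Of the other repair genes it left 2 to 6 higher, with 2 without vehicle replicate 1 and 3 without vehicle replicate 2 or 3. With the replicate number as a block, 39 members were lower and 1 was higher, and the block changed no call of a tested member.

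A mean of at least 5 FPKM tested fewer genes, and 23 members were lower, with 5 in recombination, 3 in the Fanconi group and 1 in end joining. Median log2 fold changes of the genes still tested were then −0.56 for all members and −0.42 for the Fanconi group. In end joining only Xrcc6 was still tested, at −0.96, so this is the value of 1 gene. These medians cover fewer genes than those of the main fit. A pseudocount of 0.1 gave a median of −1.01 for all members. Scaling to a common total (TPM) moved the median of all genes by −0.24 and gave medians of −1.10 for members, −1.81 for recombination, −0.86 for Fanconi, −1.58 for mismatch repair, −0.68 for excision, −0.81 for end joining, −1.17 for damage signaling and −0.76 for other repair genes, of which 3 were then higher. Ercc3 then passed as lower, with a log2 fold change of −0.38 (adjusted p = 0.0233). Using the line with the highest FPKM of each symbol, an alternative chosen after seeing the data, gave −0.76 for the Fanconi group.

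Among the genes named, the sign turned only in some that had not passed. With 1 mouse left out, the log2 fold change of Ogg1 ranged from −0.15 to 0.00032 (without DS-5272 replicate 1). That of Ercc1 ranged from −0.067 to 0.044 and was above 0 without vehicle replicate 1 (0.0019), DS-5272 replicate 1 (0.012) or DS-5272 replicate 2. That of Lig4 ranged from −0.058 (without DS-5272 replicate 1) to 0.21. With a common total, Xpa was at −0.088 and Lig4 at −0.071. Of the neighbors, Dctn5, Hscb, Abhd13 and Pomgnt1 were then at −0.0057, −0.19, −0.19 and −0.22. At a common upper quartile Abhd13 and Pomgnt1 were at −0.0051 and −0.036, and Pomgnt1 was at −0.011 by median ratio. With 1 mouse left out, Pomgnt1 ranged from −0.12 (without DS-5272 replicate 1) to 0.13 and was below 0 without vehicle replicate 2 or 3, and Abhd13 ranged from −0.00090 (without vehicle replicate 2) to 0.097.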
